A study of Mus musculus with 22 samples.

Results

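The cell cycle genes described here are the 3 D-type cyclins (Ccnd1, Ccnd2, Ccnd3), the 2 E-type cyclins (Ccne1, Ccne2), their kinases (Cdk2, Cdk4, Cdk6) and 2 inhibitors of the Cip/Kip family (Cdkn1b, Cdkn1c), listed by name for their role in G1, with earlier results of these data known. They are 10 of the 24421 genes counted, and all 10 passed the filter on low counts. RNA was sequenced from 22 libraries of cells sorted from the colon of wild type male C57BL/6N mice aged 5 to 7 weeks, with no treatment. Every sort kept live Epcam+ cells that lacked Cd31 (endothelial) and Cd45 (blood). Within that gate, Stem (3 libraries) was Cd44highest, Cd24low and Ckit-, the absorptive progenitor AbsPro (3 libraries) was Cd44med/hi, Cd24low and Ckit-, and the secretory progenitor, deep crypt secretory and goblet population SecPDG (4 libraries) was Cd44hi, Cd24med and Ckitmed. Tuft cells (5 libraries) were Ckit+ and Cd24hi, enterocytes (5 libraries) Cd44low/- and Cd24-, and enteroendocrine cells (EEC, 2 libraries) Cd44low/- and Cd24+. Replicates came from independent mice and sorts. Stem and AbsPro libraries held 1 mouse each, whereas libraries of the other populations pooled several animals, which limits how far their spread reflects single animals.

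In G1, D-type cyclins bind Cdk4 or Cdk6 and E-type cyclins bind Cdk2, and the active kinases phosphorylate the retinoblastoma protein so that E2F factors are released and DNA replication can begin. Cdkn1b (p27) and Cdkn1c (p57) bind and restrain these complexes, p27 also serving as an assembly partner of cyclin D with its kinase. In the colon crypt, stem and progenitor cells at the base divide under Wnt signals, of which Ccnd1 and Myc are classic targets in cell culture, and cells leave the cycle as they mature toward the surface.

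Counts assigned to genes ranged from 4122122 to 22462518 per library. Reads outside annotated genes made up 40.9% to 49.4% of the counted total in Stem, AbsPro and SecPDG, 43.4% to 68.0% in Tuft, 66.8% to 83.1% in Enterocyte, and 64.5% and 89.7% in the 2 EEC libraries. The EEC library with 89.7% (replicate 1) was also the shallowest and stood apart, so results that rest on it are given with and without it. The populations held the markers of their names: the summed level of 5 tuft markers was 21549.5 to 57534 normalized counts in Tuft against 22.3 to 61.4 in Stem, that of 4 enteroendocrine markers 630689 to 1811170.0 in EEC, and that of 5 stem markers 19228 to 24286 in Stem against at most 10657 elsewhere. The summed level of 5 goblet and deep secretory markers in Tuft (695775 to 1154250.0) overlapped with that in SecPDG (633208 to 2439340.0), and the 4 absorptive markers reached 92976 in 1 EEC library against 4274 in the other. A normalized count is the count scaled to a common library size, and in bulk libraries fewer cells carrying a transcript and less of it per cell cannot be told apart.

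Most cyclins and kinases of G1 fell from Stem to the mature populations, and Cdkn1c rose in the 3 secretory populations. Enterocytes held 6 of the 10 genes below Stem and none above, EECs 6 below and 1 above, and Tuft 5 below and 1 above. SecPDG held 2 above Stem and none below, and AbsPro none in either direction. In AbsPro 1 gene was higher and 6 were lower at an unadjusted p under 0.05 (edgeR), and DESeq2 called 1, Cdk4, as lower. The share of all genes under that unadjusted p was not counted. With DESeq2 in place of edgeR, 3 of the 10 were higher and 3 lower in Tuft, 2 and 4 in EEC, 1 and 5 in Enterocyte, and 2 and 1 in SecPDG. Of all genes, in either direction, DESeq2 called 3835 in Tuft, 5680 in EEC, 5240 in Enterocyte, 1856 in SecPDG and 420 in AbsPro. With edgeR these totals were 2800, 4650, 5180, 1138 and 134. A gene is called here where edgeR's quasi-likelihood test gave a Benjamini-Hochberg adjusted p under 0.01 over all 22781 genes tested and the gene's mean was at least 50 normalized counts. Of all genes tested, 11.3% were called higher and 11.5% lower in Enterocyte, 11.3% and 9.14% in EEC, 8.05% and 4.24% in Tuft, 3.39% and 1.6% in SecPDG, and 0.496% and 0.0922% in AbsPro. Over the 6 populations at once, 9 of the 10 genes differed, against 34.3% of all genes, the exception being Ccne2 (adjusted p = 0.0303, edgeR). The 5 comparisons share the 3 Stem libraries, and Cdk4 was named by the study as stem-enriched on these same samples, so its count is not independent evidence.

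The median log2 fold change of the 10 genes against Stem was -0.72 in AbsPro, -0.50 in SecPDG, -1.06 in Tuft, -1.62 in Enterocyte and -2.22 in EEC. The medians over all genes with a mean of at least 50 were 0.04, -0.06, -0.07, -0.28 and -0.29. The scaling moves that reference: with DESeq2 size factors it was 0.34 in Enterocyte and 0.47 in EEC, and the share of called genes that were higher went from 49.5% to 75.4% in Enterocyte and from 55.2% to 77.2% in EEC. With plain library totals that share was 70.9% in Enterocyte and 63.7% in EEC, and in SecPDG it went from 67.9% to 44.1%. Taken relative to the median of its own scaling, Cdk4 lay at -2.67 in Enterocyte as scaled here, at -2.80 with DESeq2 size factors and at -2.79 with library totals, and Ccnd1 at -2.54, -2.66 and -2.65. No called direction of the 10 genes turned under these 3 scalings, while the split of their higher and lower calls changed. With DESeq2 size factors it went from 1 and 5 to 2 and 4 in Tuft, from 1 and 6 to 2 and 5 in EEC and from 2 and 0 to 2 and 1 in SecPDG, and with library totals it was 2 and 5 in Tuft and EEC and 2 and 2 in SecPDG.

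**Figure D1:**
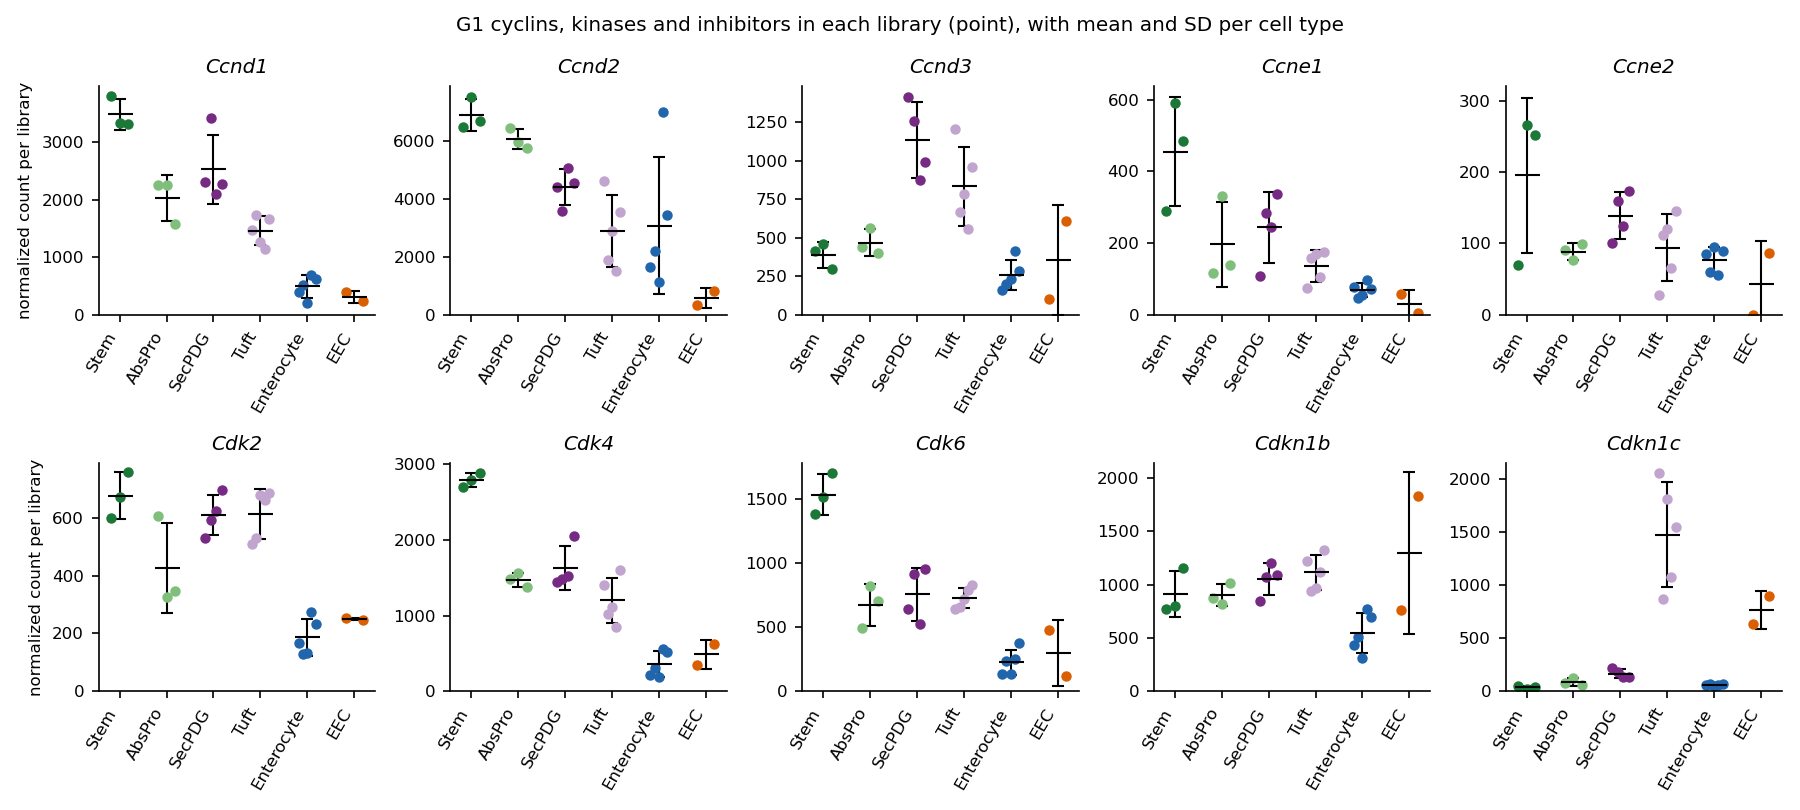
Normalized counts of the 10 genes (vertical axis, 1 panel a gene) in every library (points), with the mean and SD of each population (lines; SD bars are cut at 0). Ccnd1, Cdk4 and Cdk6 had their highest mean in Stem and their lowest means in Enterocyte and EEC, whereas Cdkn1c was at most 218 in every library other than the Tuft (875 to 2058) and EEC (638 and 896) libraries.

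Ccnd1 (chr7:144929931-144939925, minus strand, GRCm38), which encodes cyclin D1, was below Stem in all 3 mature populations. Its level was 3800.2, 3344 and 3311 normalized counts in the 3 Stem libraries, 2257, 2261 and 1572 in AbsPro, and 2309.8, 3428, 2109.7 and 2278 in SecPDG. It stood at 1470.3, 1744, 1274, 1145 and 1669 in Tuft, at 400.2, 526, 211, 699 and 628 in Enterocyte, and at 389.7 and 236 in EEC. No library of a mature population reached the lowest Stem library, and every Enterocyte and EEC library lay under every Tuft library. Against Stem the log2 fold change was -1.25 in Tuft (SE 0.29, adjusted p = 0.000939), -2.82 in Enterocyte (SE 0.31, adjusted p = 2.54e-10) and -3.52 in EEC (SE 0.47, adjusted p = 3e-08, edgeR). Without EEC replicate 1 the EEC value of Ccnd1 was -4.05. In the order of its means, from Stem through SecPDG, AbsPro, Tuft and Enterocyte to EEC, the step from Tuft to Enterocyte was the only called difference between neighbours (log2 -1.57, SE 0.29, adjusted p = 3.71e-05, edgeR), where 5.79% of all genes were called lower in Enterocyte than in Tuft. AbsPro libraries all lay below Stem, and the difference did not pass the test (log2 -0.78, SE 0.32, adjusted p = 0.365, edgeR). Nor was the step from SecPDG to Tuft called (log2 -0.79, SE 0.27, adjusted p = 0.0465, edgeR). On the opposite strand LTO1 shares 23.4% of the exon bases of Ccnd1, and counting took no account of strand.

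Ccnd2 (chr6:127125162-127152193, minus strand), the cyclin D2 gene, fell in all 3 mature populations and further in EEC than in the other two. It measured 6489, 7528 and 6678 in Stem, 6431, 5959 and 5764 in AbsPro, and 4396, 3569, 5057 and 4564 in SecPDG. Its levels were 4607, 1887, 2899.6, 1519 and 3555 in Tuft, 1655, 2189, 1129, 6993 and 3438 in Enterocyte, and 330.5 and 812 in EEC. Stem and AbsPro did not overlap but lay close, the Enterocyte libraries spread over the whole range with 1 of 5 (replicate 4) inside the Stem range, and EEC lay below every other library. The log2 fold change against Stem was -1.25 in Tuft (SE 0.37, adjusted p = 0.00864), -1.16 in Enterocyte (SE 0.37, adjusted p = 0.00667, 4 of 5 libraries lower) and -3.55 in EEC (SE 0.58, adjusted p = 2.24e-06, edgeR). The Enterocyte call ended without Stem replicate 1 (log2 -1.20), Enterocyte replicate 2 (-1.06) or Enterocyte replicate 3 (-0.95), and the value was -1.72 without Enterocyte replicate 4. It also ended with DESeq2 size factors (-0.76), DESeq2 (-0.77), a fit of the 2 populations alone (-0.91) and edgeR's earlier estimate of the spread, estimateDisp (-1.16), which was tried after seeing the data. The Tuft call ended with estimateDisp (-1.25). It also ended in 10 of 22 fits without a library (log2 -1.09 to -1.32), those without Stem replicates 1, 2 or 3, Tuft replicates 2, 3 or 4, AbsPro replicate 2, or SecPDG replicates 1, 3 or 4. In EEC the value was -4.39 without replicate 2, within a range over all libraries left out of -4.39 to -3.25. Between neighbours in the order of means, only the step from Tuft to EEC was called (log2 -2.30, SE 0.54, adjusted p = 0.00127, edgeR; 4.56% of all genes were called lower in EEC than in Tuft), and Ccnd2 was also lower in EEC than in Enterocyte (log2 -2.39, SE 0.54, adjusted p = 0.00144), where 1.26% of genes were. Both calls ended without EEC replicate 1 (log2 -1.99 against Tuft and -1.86 against Enterocyte), and without EEC replicate 2 the values were -3.13 and -3.23.

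Ccnd3 (chr17:47505051-47599691, plus strand), the third D-type cyclin, ran the other way and was highest in SecPDG and Tuft. Stem libraries held 416, 457 and 297 normalized counts, AbsPro 443, 564 and 398, and SecPDG 1414, 1255, 871 and 990.4. The Tuft libraries held 1207, 665, 787, 554 and 958, the Enterocyte libraries 162, 201, 229.5, 416 and 287, and the EEC libraries 103 and 606. Every SecPDG and Tuft library exceeded every Stem library, while the 2 EEC libraries lay on either side of Stem. SecPDG was 2.9-fold above Stem (log2 1.53, SE 0.34, adjusted p = 0.00129, edgeR), and the call ended without Stem replicate 3 (log2 1.40) and with estimateDisp (1.54). The 2.14-fold difference of Tuft from Stem (SE 0.34 on the log2 scale, adjusted p = 0.0111) and that of SecPDG against AbsPro (log2 1.27, SE 0.34, adjusted p = 0.012) missed the threshold, and both were called with DESeq2, with its size factors (log2 1.29 and 1.31) and with library totals (1.15 and 1.11). Enterocytes were lower than SecPDG (log2 -2.11, SE 0.32, adjusted p = 6.54e-07) and lower than Tuft (log2 -1.68, SE 0.32, adjusted p = 5.93e-05, edgeR). Between SecPDG and EEC the log2 fold change was -1.57 (SE 0.43, adjusted p = 0.00255), with -3.45 without EEC replicate 2, and -1.12 and no call without EEC replicate 1. It was not called with DESeq2 size factors (-1.04) or with the 2 populations alone (-1.62).

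**Figure D2:**
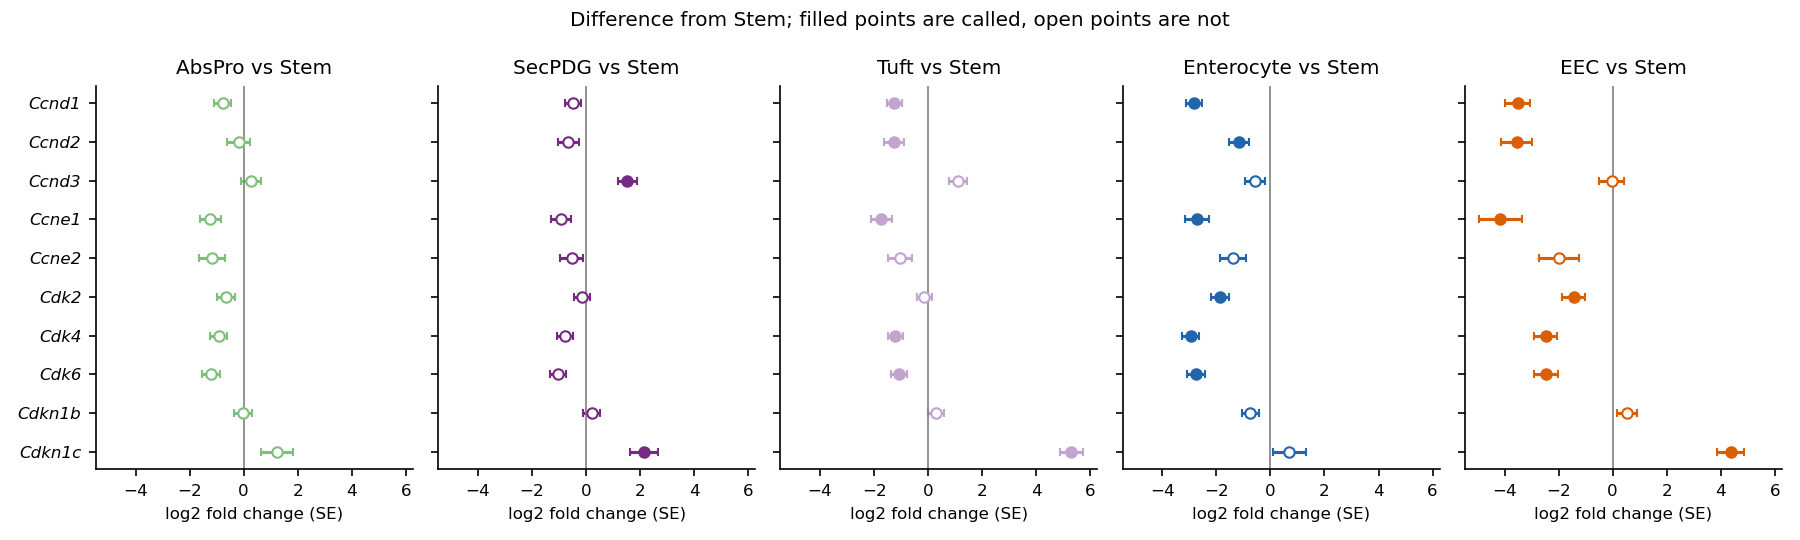
Log2 fold change of each gene against Stem (horizontal axis) in the 5 other populations (panels), with bars of 1 SE from edgeR; filled points are called, open points are not. Ccnd3 and Cdkn1c are the called points to the right in SecPDG (1.53 and 2.13), and Cdkn1c is the point farthest to the right in Tuft (5.30) and EEC (4.38), with Cdk4 at -2.95 and Ccnd1 at -2.82 in Enterocyte.

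Per kb of exon, the E-type cyclins lay below Ccnd1 and Ccnd2 in every population. Ccne1 (chr7:38097984-38107534, minus strand), cyclin E1, measured 290.2, 591 and 485 normalized counts in Stem, 117, 332 and 139.7 in AbsPro, and 108, 285, 244 and 338 in SecPDG. It measured 73.5, 157, 171, 105 and 176 in Tuft, 78.8, 46.1, 56.2, 97.6 and 71.7 in Enterocyte, and 57.3 and 3.85 in EEC. All Tuft, Enterocyte and EEC libraries lay below all Stem libraries, whereas those of the progenitors overlapped with Stem. The log2 fold change against Stem was -1.73 in Tuft (SE 0.38, adjusted p = 0.000526), -2.71 in Enterocyte (SE 0.43, adjusted p = 1.68e-06) and -4.15 in EEC (SE 0.78, adjusted p = 2.33e-05, edgeR). The Tuft call ended without Stem replicate 2 (log2 -1.50), with DESeq2 (-1.52) and with estimateDisp (-1.74), and the EEC call with the 2 populations alone (-3.92). The EEC value moved with the library: it was -7.01 without replicate 1, where the remaining library holds 3 counts of Ccne1, and -3.00 without replicate 2.

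Ccne2 (chr4:11191351-11204779, plus strand), cyclin E2, was the only member with no called difference against Stem in any population that also failed the test over all 6. Its levels were 70.3, 265 and 251 in Stem, 90.3, 76.5 and 99.1 in AbsPro, and 99.9, 159, 125 and 173 in SecPDG. They were 27.1, 112, 120.2, 65.6 and 145 in Tuft, 85.0, 60.6, 95.2, 55.4 and 89.3 in Enterocyte, and 0 and 85.9 in EEC. The other two Stem libraries stood above all the rest, but Stem replicate 1 did not, so that every population overlapped with Stem. The 0 came from EEC replicate 1, in which the limit that a count of 0 allows (3 counts) is 5.73 normalized counts. The Enterocyte value was nearest to the threshold (log2 -1.38, SE 0.47, adjusted p = 0.0113, edgeR). Ints8 on the opposite strand shares 17.4% of the exon bases of Ccne2.

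Cdk4 (chr10:127063534-127067920, plus strand), a partner of the D-type cyclins, separated Stem from every other library. It stood at 2695, 2789.7 and 2886 normalized counts in Stem, at 1485, 1561 and 1374 in AbsPro, and at 1445, 1478, 1516 and 2056 in SecPDG. Its levels were 1406, 1027, 1114, 849.5 and 1604 in Tuft, 219, 314, 189, 559 and 519 in Enterocyte, and 349.6 and 626 in EEC. The 3 Stem libraries spread by an SD of 95.4 around 2790.2, and the highest of all other libraries was SecPDG replicate 4 at 2056. The log2 fold change was -1.21 in Tuft (SE 0.28, adjusted p = 0.0012), -2.95 in Enterocyte (SE 0.31, adjusted p = 9.92e-11) and -2.48 in EEC (SE 0.43, adjusted p = 5.46e-06, edgeR). With each library left out in turn, the EEC value ranged from -3.00 to -2.32. AbsPro (log2 -0.92, SE 0.32, adjusted p = 0.192) and SecPDG (log2 -0.78, SE 0.30, adjusted p = 0.107) did not pass the test, and both were called with DESeq2 size factors and with library totals. Tspan31 on the opposite strand shares 19.7% of the exon bases of Cdk4.

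The promoter of Cdk4, which like Cdk6 had every Stem library above all other libraries, is shown because it held 4 copies of the E-box letters CACGTG, as Myc and related factors bind, and the TCF/LEF letters CTTTGAT of Wnt responsive sites. The stretch is chr10:127063285-127063534 of GRCm38.p6 (plus strand, RefSeq), the 250 bases before the start of the gene, with the matches in capitals.

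Cdk4 promoter: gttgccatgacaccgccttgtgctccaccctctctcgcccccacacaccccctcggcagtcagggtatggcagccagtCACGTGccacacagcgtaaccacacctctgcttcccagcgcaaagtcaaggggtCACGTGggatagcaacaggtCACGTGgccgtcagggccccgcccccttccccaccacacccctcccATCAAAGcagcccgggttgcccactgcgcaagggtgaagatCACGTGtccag

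CACGTG, which reads the same on both strands, begins at -172, -118, -98 and -11 from the start, and CTTTGAT lies on the minus strand at -52. Of 32851 RefSeq promoter windows of 300 bases, 7.15% held CACGTG on either strand, and 8 windows (0.0244%) held it in at least 4 places. CTTTGAT or CTTTGTT, the TCF/LEF letters searched for on both strands, were held by 9.33%. The E-box was searched for, and its copies counted, after this sequence had been seen. Among the 6 genes of the group with a window (Ccnd3, Ccne1, Cdk2, Cdk4, Cdk6 and Cdkn1b, 7 windows), CACGTG was otherwise held only by that of Cdk6, at -220. These are matches of letters and not measured binding.

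Cdk6 (chr5:3341485-3531008, plus strand), the other kinase of the D-type cyclins, followed Cdk4. Its levels were 1381, 1514 and 1698 in Stem, 496, 819 and 706 in AbsPro, and 639, 910.4, 524 and 949 in SecPDG. They were 641, 655, 719, 790.0 and 825 in Tuft, 136, 233, 136, 254 and 373 in Enterocyte, and 478 and 117 in EEC. Stem stood above all other libraries, AbsPro, SecPDG and Tuft shared 1 range, and Enterocyte and EEC lay below it. The log2 fold change was -1.07 in Tuft (SE 0.29, adjusted p = 0.00475), -2.76 in Enterocyte (SE 0.33, adjusted p = 2.07e-09) and -2.47 in EEC (SE 0.46, adjusted p = 1.95e-05, edgeR). In EEC it was -3.87 without replicate 1 and -1.68 without replicate 2, and it was not called with DESeq2 (-1.33) or with the 2 populations alone (-2.14). The Tuft call ended without Stem replicates 1, 2 or 3 or Tuft replicates 1, 2 or 3 (log2 -1.03 to -1.14), and with DESeq2 size factors (-0.87), DESeq2 (-0.86) and estimateDisp (-1.08). The values in AbsPro (log2 -1.19, SE 0.33, adjusted p = 0.0554) and SecPDG (log2 -1.03, SE 0.31, adjusted p = 0.0237) missed the threshold, although no library overlapped with Stem.

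Cdk2 (chr10:128697939-128705031, minus strand), the partner of the E-type cyclins, was called below Stem in Enterocyte and EEC and not in Tuft. Stem libraries held 598, 672 and 759 normalized counts, AbsPro 605, 325 and 348, and SecPDG 528, 594, 624.9 and 695. Tuft libraries held 508, 529, 679.8, 662 and 687, Enterocyte libraries 165, 129, 132, 274 and 233, and EEC libraries 252 and 246. Stem, SecPDG and Tuft overlapped, and all Enterocyte and EEC libraries lay below all others. The log2 fold change was -0.14 in Tuft (SE 0.28, adjusted p = 0.712), against -1.86 in Enterocyte (SE 0.32, adjusted p = 6.16e-06) and -1.44 in EEC (SE 0.43, adjusted p = 0.00475, edgeR), the last not called without EEC replicate 2 (log2 -1.43). Without EEC replicate 1 the EEC value was -1.62. The EEC call also ended with DESeq2 size factors (-0.79), DESeq2 (-0.65), library totals (-1.11) and the 2 populations alone (-1.19). Enterocytes were also below Tuft (log2 -1.72, SE 0.30, adjusted p = 1.45e-05, edgeR).

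Several E2F letter sequences were searched for as a set, and of the 7 windows only the promoter of Cdk2 held a match, TTTCCCGC. Any sequence of that set was held by 2.26% of all windows, and the share for TTTCCCGC alone was not counted. The 60 bases around the match, chr10:128705152-128705211 on the minus strand of GRCm38.p6 (RefSeq), run from -160 to -101 of the start, and the capitals at -140 are the match as read on the other strand.

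Cdk2 promoter: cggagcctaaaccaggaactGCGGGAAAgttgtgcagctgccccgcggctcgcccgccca

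Cdkn1b (chr6:134920401-134925513, plus strand), the p27 gene, was called in no comparison with Stem. Its levels were 770.4, 801 and 1159 in Stem, 878, 816 and 1012 in AbsPro, and 848, 1075, 1205 and 1089.7 in SecPDG. They were 1224, 944, 968, 1118 and 1321 in Tuft, 434, 507, 313, 774 and 695 in Enterocyte, and 760.3 and 1836 in EEC. All populations overlapped with Stem. Enterocytes were lower than SecPDG (log2 -0.95, SE 0.29, adjusted p = 0.00476) and than Tuft (log2 -1.04, SE 0.27, adjusted p = 0.00519, edgeR), and 12.7% of all genes were called lower in Enterocyte than in SecPDG. The first of these calls ended without Enterocyte replicates 2 or 3 or SecPDG replicates 3 or 4 (log2 -0.80 to -0.94), and with DESeq2 size factors (-0.45) and library totals (-0.31). The second ended without Enterocyte replicates 2 or 3 or Tuft replicates 1 or 5 (log2 -0.89 to -1.01). EEC was called above Enterocyte (log2 1.28, SE 0.35, adjusted p = 0.00976, edgeR; 3.46% of all genes were), with 1 of 2 libraries inside the Enterocyte range. That call ended in 11 of 22 fits without a library. The value was 0.48 without EEC replicate 2, and 1.13 to 1.28 without AbsPro replicate 2, Stem replicate 1, Enterocyte replicates 2 or 3, SecPDG replicates 2, 3 or 4, or Tuft replicates 1, 2 or 3. The value of EEC against Stem depended on scaling, at log2 0.54 and not called here (SE 0.37, adjusted p = 0.225, edgeR) but 1.16 and called with DESeq2 size factors.

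Cdkn1c (chr7:143458339-143461050, minus strand), the p57 gene, known as an imprinted gene, showed the largest change of the group. It measured 48.5, 26.4 and 38.5 normalized counts in Stem, 75.4, 126 and 60.5 in AbsPro, and 218, 180.0, 131 and 131 in SecPDG. It measured 2058, 875, 1816, 1080.5 and 1554 in Tuft, 57.2, 72.7, 47.6, 56.6 and 70.2 in Enterocyte, and 638 and 896 in EEC. Every Tuft and EEC library lay above every library of the other 4 populations, and every SecPDG library lay above every Stem, AbsPro and Enterocyte library. Tuft was 39.5-fold above Stem (log2 5.30, SE 0.43, adjusted p = 6.18e-15), EEC 20.8-fold (log2 4.38, SE 0.50, adjusted p = 3.32e-10) and SecPDG 4.39-fold (log2 2.13, SE 0.52, adjusted p = 0.00315, edgeR). With each library left out in turn, the EEC value ranged from log2 4.06 to 4.58. The SecPDG call ended without SecPDG replicate 1 (log2 1.96), Stem replicate 2 (2.00) or Stem replicate 3 (2.18). The value in Enterocyte was log2 0.70 and not called (SE 0.61, adjusted p = 0.312, edgeR), and 1.26 and called with DESeq2. Among neighbours in the order from Tuft through EEC, SecPDG, AbsPro and Enterocyte to Stem, only the step between EEC and SecPDG was called (EEC higher by log2 2.24, SE 0.40, adjusted p = 8.83e-06, edgeR).

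The markers of other cell types beside Cdkn1c were as follows. Of 5 tuft markers, 4 were called above Stem in both EEC and SecPDG, with summed levels of 3108 to 7649.7 and 445 to 712 against 21549.5 to 57534 in Tuft, and Gng13 was at 0 in both EEC libraries. In Enterocyte 3 of the tuft markers were called above Stem, with a summed level of 223 to 717. Enteroendocrine markers summed to 1476 to 28557 in Tuft. The 4 endothelial markers were all called above Stem in Tuft (244 to 756), Enterocyte (491 to 1223) and EEC (1377 to 1964), against 78.5 to 174 in Stem, and the 5 stromal markers summed to 113 to 578 in Tuft, 429 to 1215 in Enterocyte and 304 to 2179.8 in EEC. The mean sums of Enterocyte (898 and 852) were above those of Tuft (627 and 357), while Cdkn1c stood at 47.6 to 72.7 in Enterocyte and 875 to 2058 in Tuft. Of the 6 immune markers only Ptprc, which encodes the Cd45 that the sort excluded, was called in Tuft, with a summed level of 1191 to 3337 against 41.2 to 105 in Stem, and in EEC the sum was 468 to 1524 with Cd79a at 0. The part of these markers in the level of Cdkn1c was not tested. Gm44732, an antisense transcript on the opposite strand, shares 30.7% of the exon bases of Cdkn1c.

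**Figure D3:**
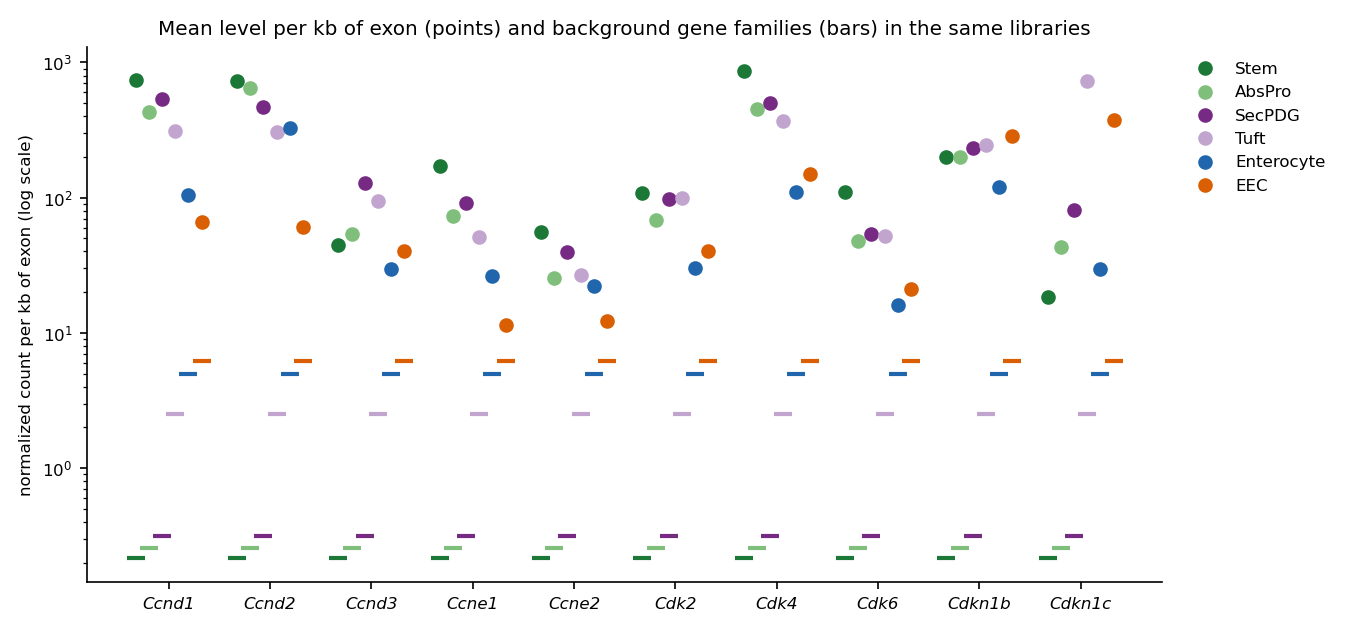
Mean normalized count per kb of exon (vertical axis, log scale) of each gene in the 6 populations (points), with the mean per kb of 1545 genes of receptor and other families rarely transcribed outside specialised tissues, in the same libraries (bars). The bars rose from 0.216 in Stem to 4.96 in Enterocyte and 6.17 in EEC, and the points of Ccne1 and Ccne2 in EEC come closest to them.

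Levels can be compared between genes only per length. Per kb of exon, the order in Stem was Cdk4 (859 normalized counts per kb), Ccnd1 (740.1), Ccnd2 (733), Cdkn1b, Ccne1 (171), Cdk6 (109.4), Cdk2 (108.8), Ccne2 (56.0), Ccnd3 (44.4) and Cdkn1c (18.5). In Tuft, Cdkn1c led with 724 per kb, above Cdk4 (369) and Ccnd1 (310.1). In Enterocyte, Ccnd2 led with 327, and in EEC Cdkn1c with 376. Genes of the olfactory receptor, vomeronasal receptor, beta defensin, keratin-associated and odorant binding families, rarely transcribed outside specialised tissues, were measured in the same libraries for comparison. Their mean per kb was 0.216 in Stem, 0.256 in AbsPro, 0.312 in SecPDG, 2.53 in Tuft, 4.96 in Enterocyte and 6.17 in EEC. That was 53.8% of the level of Ccne1 and 50.2% of that of Ccne2 in EEC, 30.6% of that of Cdk6 in Enterocyte, and 4.74% and 4.47% of those of Ccnd1 and Cdk4 in Enterocyte. For Cdkn1c it was 0.349% in Tuft and 16.6% in Enterocyte. The part of such reads in the fold changes was not tested.

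Steps within each lineage were compared next. From AbsPro to Enterocyte, 4 of the 10 genes fell, Ccnd1 (log2 -2.04, SE 0.31), Cdk4 (log2 -2.03, SE 0.32), Cdk6 (log2 -1.57, SE 0.34) and Cdk2 (log2 -1.21, SE 0.34), with adjusted p from 3.25e-06 to 0.0035 (edgeR), and none rose, against 7.98% lower and 8.67% higher of all genes. From SecPDG to Tuft none fell and Cdkn1c alone rose, 9-fold (log2 3.17, SE 0.32, adjusted p = 2.32e-11, edgeR), against 0.347% and 3.05% of all genes. From SecPDG to EEC 7 fell (Ccnd1, Ccnd2, Ccnd3, Ccne1, Cdk2, Cdk4 and Cdk6) and Cdkn1c rose 4.73-fold, against 10.1% and 11.6% of all genes. Of these, the calls of Ccne1 (log2 -3.23, and -2.08 without EEC replicate 2 against -6.12 without replicate 1) and Cdk6 (log2 -1.44, and -0.66 without EEC replicate 2, -2.88 without replicate 1 and -1.31 without SecPDG replicate 4) rested on single libraries, and that of Cdk2 (log2 -1.30) ended in 8 of 22 fits without a library (EEC replicate 2, SecPDG replicates 3 or 4, Stem replicate 1, Tuft replicates 2 or 3, Enterocyte replicates 2 or 5; log2 -1.23 to -1.30). The fall of Cdk2 from AbsPro to Enterocyte was not called without AbsPro replicate 1 (-1.07), Enterocyte replicate 2 (-1.09) or Enterocyte replicate 3 (-1.10). DESeq2 called 2 of the 10 as lower from AbsPro to Enterocyte, without Cdk2 (-0.65) and Cdk6 (-1.06), and from SecPDG to EEC it called 4 as lower and 2 as higher, without Ccne1 (-1.91), Cdk2 (-0.52) and Cdk6 (-0.31) and with Cdkn1b (0.90). Of all genes, in either direction, DESeq2 called 3755 and 6250 in these steps, against 3792 and 4947 with edgeR. None of the 10 was called between the 2 progenitor populations (1 higher at an unadjusted p under 0.05 with edgeR, and 1 called as higher with DESeq2), where 2% of genes were called higher and 1.73% lower in SecPDG than in AbsPro. DESeq2 called 1468 genes there in either direction, against 849 with edgeR, and the share under the unadjusted p was not counted. The difference between the step to Tuft and the step to Enterocyte was tested itself. It was called for Cdkn1c (log2 3.70, SE 0.62, adjusted p = 0.000200, edgeR), as for 0.364% of all genes. The nearest of the others was Cdk4 (log2 1.60, SE 0.42, adjusted p = 0.0483, edgeR), followed by Cdk6 (log2 1.53, SE 0.45, adjusted p = 0.105). Without AbsPro replicate 2 the value of Cdkn1c was 3.35 with an adjusted p of 0.0141, within a range over all libraries left out of 3.35 to 4.05 and 9.26e-06 to 0.0141.

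**Figure D4:**
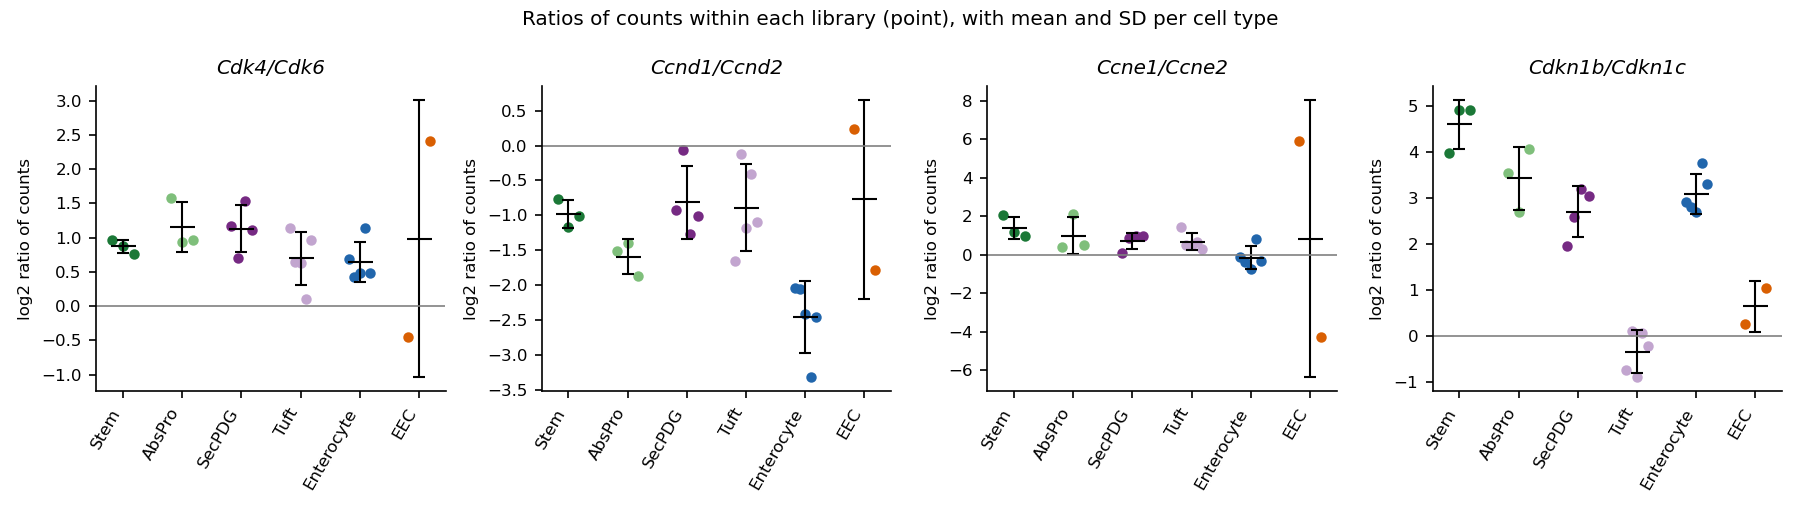
Log2 ratio of the counts of 2 related genes within each library (vertical axis; points, with mean and SD) in the 6 populations, for Cdk4 to Cdk6, Ccnd1 to Ccnd2, Ccne1 to Ccne2 and Cdkn1b to Cdkn1c. The Tuft libraries lie near 0 for Cdkn1b to Cdkn1c (mean -0.35) and below every library of Stem (mean 4.60) and SecPDG (mean 2.69), and the Enterocyte libraries lie lowest for Ccnd1 to Ccnd2 (mean -2.46).

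A ratio of 2 genes within a library does not depend on how libraries are scaled. The log2 ratio of Cdkn1b to Cdkn1c was 4.60 ± 0.53 (SD, n = 3) in Stem, 2.69 ± 0.56 (n = 4) in SecPDG and -0.35 ± 0.46 (n = 5) in Tuft. Tuft and SecPDG did not overlap (difference -3.04, exact two-sided permutation p = 0.0159, the smallest that 5 against 4 libraries allow). The log2 ratio of Ccnd1 to Ccnd2 was -0.98 ± 0.20 (n = 3) in Stem and -2.46 ± 0.52 (n = 5) in Enterocyte, again with no overlap (exact permutation p = 0.0357, the smallest that 5 against 3 allow). The log2 ratio of Ccne1 to Ccne2 went from 1.38 ± 0.58 (n = 3) in Stem to -0.15 ± 0.59 (n = 5) in Enterocyte without overlap (exact permutation p = 0.0357). Cdk4 to Cdk6 ranged from 0.64 to 1.16 in the population means, and no pair of populations separated. Adjusted over the 36 comparisons of 4 ratios, the smallest p was 0.214. None could have passed the threshold for calls, because the smallest p that any of them allows before adjustment, 0.0159, lies above it. The adjusted values therefore cannot tell whether the ratios differed.

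Of 29 other genes of the G1/S pathway, 8 fell and none rose in Tuft against Stem, 15 fell and 2 rose in Enterocyte, and 14 fell and 1 rose in EEC. In AbsPro 2 rose, and in SecPDG none was called in either direction (edgeR). Those that rose were inhibitors, while another inhibitor of Cdk4 and Cdk6, Cdkn2c (p18, named after its values were seen), fell in Enterocyte (log2 -2.03) and EEC (log2 -2.02). Cdkn1a (p21), a Cip/Kip inhibitor and target of p53, was higher by log2 2.47 in AbsPro, 2.72 in Enterocyte and 2.80 in EEC, where its SD over the 2 libraries was 1283 around 1116 normalized counts, and Cdkn2b (p15), an inhibitor of Cdk4 and Cdk6, by 3.25 in AbsPro and 4.64 in Enterocyte. In normalized counts, Cdkn2b was 21.1 in Stem, 205 in AbsPro and 535 in Enterocyte, and 24.2 in Tuft. Cks1b, a small protein that binds the kinases and helps Skp2 to mark p27 for breakdown, fell by 1.52 on the log2 scale in Tuft and by 1.57 in Enterocyte. Of 10 E2F and partner genes, 3 fell in Tuft, 7 in Enterocyte and 6 in EEC. Of 4 genes that act later in the cycle (Ccna2, Ccnb1, Ccnb2 and Cdk1), 4 fell in Enterocyte and EEC and 3 in Tuft, with Ccna2 (cyclin A2) at log2 -1.22 in Tuft, -2.61 in Enterocyte and -4.02 in EEC. Ccnb2 (cyclin B2) was 3.99-fold lower in Tuft and stood at log2 -2.33 in Enterocyte and -4.90 in EEC, and Ccnb1 (cyclin B1) at -1.43, -1.95 and -4.91. Of 8 proliferation genes (Mki67, Pcna and 6 Mcm genes of the replicative helicase), 8 fell in Enterocyte and EEC and 7 in Tuft, and none was called in AbsPro or SecPDG.

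Cdk2 has an alternative exon that was counted in the skipped exon tables. A longer form of Cdk2 that carries an additional stretch is known in rodents. The exon is chr10:128699976-128700119 (minus strand, GRCm38), the sixth of 8 exons of transcript Cdk2-202, the only 1 of the 7 annotated Cdk2 transcripts that holds it. Its 144 bases are 48 codons, wholly coding, and it is shown because the reads over it differed between populations. The exon is in capitals, with 15 bases of the neighbouring exons of the spliced transcript on each side.

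Cdk2 exon: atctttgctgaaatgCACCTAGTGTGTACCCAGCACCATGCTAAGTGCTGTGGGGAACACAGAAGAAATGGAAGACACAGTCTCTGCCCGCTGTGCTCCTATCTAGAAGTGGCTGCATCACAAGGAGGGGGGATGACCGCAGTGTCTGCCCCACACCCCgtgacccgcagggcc

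The tables list libraries in an order not tied to replicate numbers. Reads with the exon and reads skipping it were 0 and 26, 6 and 17, and 13 and 45 in the 3 Stem libraries. In AbsPro they were 12 and 0, 0 and 0, and 10 and 31, and in SecPDG 44 and 0, 11 and 5, 4 and 0, and 21 and 6. In Tuft they were 0 and 0, 4 and 12, 8 and 0, 28 and 2, and 41 and 5, and in Enterocyte 0 and 0, 5 and 0, 2 and 0, 9 and 3, and 1 and 0. Before correction for length, skipping reads outnumbered inclusion reads in all 3 Stem libraries and in none of the 4 SecPDG libraries. In this, 1 Tuft and 1 AbsPro library were like Stem. After correction, inclusion was 47.3% in the SecPDG library with 11 and 5 reads. Corrected for length and pooled over libraries, inclusion was 8.09% in Stem, 22.4% in AbsPro, 74.8% in SecPDG, 63.5% in Tuft and 69.8% in Enterocyte. The difference from Stem did not pass the test over all events: the log2 odds were 5.92 in SecPDG (SE 2.89, adjusted p = 0.739), 5.26 in Tuft (SE 2.45, adjusted p = 0.645) and 5.56 in Enterocyte (SE 2.52, adjusted p = 0.633, edgeR). At adjusted p under 0.01, the called share of events was 0% in AbsPro (of 4293), SecPDG (of 5283), Tuft (of 5464) and Enterocyte (of 4756), and 5, 44, 119 and 144 events were under an unadjusted p of 0.05. These are 0.116%, 0.833%, 2.18% and 3.03% of events, less than a share of 0.05, so the test was strict on these counts. The 0% does not show that exon use was alike. With rMATS and its own threshold, the paper reported many skipped exon events between Stem and AbsPro. Of 11 tests of exons of the 10 genes 3 were under an unadjusted p of 0.05, all of the same Cdk2 exon. These 3 tests share the same 3 Stem libraries and are not independent of each other. Their unadjusted p was 0.0407 in SecPDG, 0.0319 in Tuft and 0.0272 in Enterocyte (edgeR). Tested exons of Ccne2, Cdk4 and Ccnd1 were included at 94.3% to 100% when pooled over the libraries of a population, and none was called. The lowest single libraries were 1 Tuft library for Cdk4 (76.9%) and 1 Stem library for Ccne2 (86.5%). With at most 58 reads over the Cdk2 exon in any library, the depth limits these shares.

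**Figure D5:**
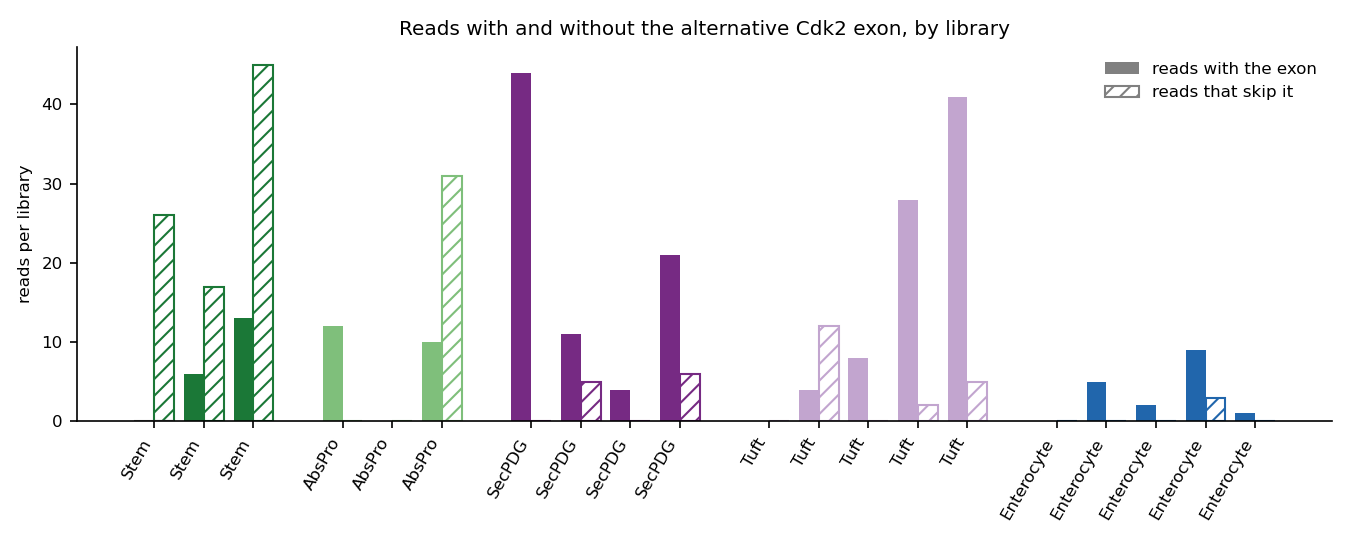
Reads with the alternative Cdk2 exon (filled bars) and reads that skip it (hatched bars) in each library of 5 populations (vertical axis, reads per library, from 0). Skipping reads are the taller bar in the 3 Stem libraries, with up to 45 reads, and inclusion reads in the 4 SecPDG libraries, with up to 44. The reads are not corrected for length.

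The use of the distal polyadenylation site was estimated for Ccnd1, Ccnd2, Ccnd3, Cdk4, Cdk6 and Cdkn1b, in 15 comparisons with Stem, none of which was called and 1 of which had an unadjusted p under 0.05 (limma). Over all transcripts the called share was 0.0237% in SecPDG (of 4223) and 0% in AbsPro (of 4976), Tuft (of 3257), Enterocyte (of 2449) and EEC (of 735), where 3.94%, 5.19%, 8.53% and 13.7% of transcripts were under an unadjusted p of 0.05. In SecPDG the share under an unadjusted p of 0.05 was 4.85%. Ccnd2 was the most even, with a distal share of 44.0% ± 1 (SD, n = 3) in Stem and means of 44.0% to 48.0% in AbsPro, SecPDG, Tuft and Enterocyte. Ccnd1 had 51.0% ± 9.54 in Stem, 40.7% ± 3.79 in AbsPro and 38.5% ± 8.19 (n = 4) in SecPDG. Ccnd3 stood at 60.7% ± 14.3 in Stem and 30% ± 12.2 in SecPDG (unadjusted p = 0.0217, adjusted p = 0.847, limma), with overlapping libraries. In the AbsPro table, which sets another proximal site, the Stem share of Ccnd3 was 41.7% ± 28.4. As shares with no read counts their depth is unknown.

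The genes whose levels ran most like each member over the 22 libraries are given as a description, since libraries of a population share their cell type. Ccnd1 ran with Incenp (Pearson r 0.97), Uhrf1 and Ssrp1, Cdk4 with Tcof1 (r 0.98), Smarcc1 and Dnmt1, and Ccne1 with Ncapd2 (r 0.94), Asf1b and Hist1h3g. Cdk6 ran with Myc (r 0.93), a driver of growth, Msh6 and Cd44, the last a sorting marker. Ccnd2 ran with Mrpl9 (r 0.97), Mgam and Bspry, Ccnd3 with Clstn1 (r 0.96), Myo1c and Gbf1, and Cdk2 with Kank1 (r 0.94), Tubb5 and Hopx. Cdkn1c ran with Kctd12 (r 0.96), Tuba1a and Sh2d7, Cdkn1b with Lap3 (r 0.94), Mycbp2 and B230219D22Rik, and Ccne2 with Mrgbp (r 0.92), 2310011J03Rik and Dr1. Within the group, the closest pairs were Ccnd1 with Cdk4 (r 0.92), Ccnd1 with Cdk6 (r 0.90) and Cdk2 with Cdk4 (r 0.89), and Ccnd2 and Cdkn1c ran in opposite directions (r -0.42).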

How the data were processed

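RNA was measured in 22 libraries of 6 sorted populations, grouped by the deposited labels. The authors prepared libraries from 1 ng of RNA with a low input kit and deposited raw counts per gene, made with STAR (2.5.2a) on mm10 and HTSeq (0.6.1p1) without regard to strand, the versions being those of the submitters' processing notes. Lines naming no gene were left out of library sizes. They held 53.9% to 91.6% of each file's total, mostly reads outside genes. The authors also deposited rMATS counts of exon inclusion and skipping, and DaPars tables whose values are the fraction of distal site use. MAJIQ tables and the authors' own fold changes and p-values were not used.

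Counts were fitted with edgeR (4.0.16) in R (4.3.3): filterByExpr, TMM scaling, glmQLFit and glmQLFTest with population as the only factor and all 22 libraries, with calls at the study's own threshold (adjusted p 0.01, mean 50 normalized counts). Normalized counts refer to the mean library size of 14451800. Exon events with a mean of at least 10 counts were tested with edgeR after estimateDisp, a choice made on simulated data, and distal shares with limma (3.58.1) on log2((share + 0.01)/(1 - share + 0.01)). Ratios used counts plus 0.5. Named genes are the 10 members, the wider G1/S and marker lists, and the 3 genes most like each member by Pearson correlation over all libraries. The members and the lists were chosen with earlier results of these data known. Libraries of different populations with the same replicate number were no more alike at the median than others. The median correlation of deviations was 0.000159 over 44 pairs of the same number and 0.00424 over 154 other pairs. Single pairs of the same number ranged from -0.396 to 0.503, so a median cannot tell whether some shared an animal or a day. Alternatives were DESeq2 (1.42.0), its size factors, library totals, no filter, other thresholds, 2 populations alone, a replicate block and leaving out each library. Where a fit left a population with 1 library, that library was assumed to vary like the others. The edgeR and limma fits were tested on simulated data, while DESeq2 and the permutation tests were not. For Tuft against Stem, edgeR recovered 2 of 50 simulated log2 changes of -1 and 2 of 50 of 1. It recovered 41 of 50 of -2 and 33 of 50 of 2. The exon test recovered 30 of 100 changes of log2 3 and 83 of 100 of log2 5, and the distal share test 148 of 200 of log2 4.16. In these simulations the smaller changes were mostly missed.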

Additional observations from a re-analysis of the deposited data

Results flagged for a closer look

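Ccnd1 in SecPDG replicate 2 stood at 3428 normalized counts, far from the other 3 SecPDG libraries at 2109.7 to 2309.8, and inside the range of Stem. Cdk4 in SecPDG replicate 4 stood at 2056, where the other 3 lay between 1445 and 1516. Of 30 sets of libraries looked at in this way (10 genes in SecPDG, Tuft and Enterocyte), these 2 stood out, and chance alone gives about 1 in 20. The step from SecPDG to Tuft exceeded that from AbsPro to Enterocyte by 3.70 (log2) for Cdkn1c, by a test of the difference itself (SE 0.62, adjusted p = 0.000200, edgeR).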

How the results depend on the processing

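No called direction was reversed under any alternative. The number of the 10 genes called in AbsPro against Stem was 0 and became 2 with the 2 populations alone and 1 with DESeq2, with its size factors and with library totals. In SecPDG it was 2 and became 4 with the 2 populations alone, 4 with library totals and 1 with edgeR after estimateDisp, an alternative chosen after seeing the data. In Tuft 6 became 3 with estimateDisp, and in EEC 7 became 4 with the 2 populations alone. The difference between lineages was called for 1 gene, and for 2 with DESeq2 size factors, with library totals and at an adjusted p under 0.05. In the wider list, 0 became 4 in SecPDG with library totals and 8 became 5 in Tuft with DESeq2. Leaving out each library in turn gave 0 to 1 calls in AbsPro, 0 to 3 in SecPDG (0 without Stem replicate 3), 3 to 7 in Tuft (3 without Stem replicate 2), 7 to 8 in EEC and 0 to 4 for the difference between lineages (0 without AbsPro replicate 2, 4 without EEC replicate 1), and 3.35 to 4.05 for the value of Cdkn1c. The causes were not tested.

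Over all genes, the calls in AbsPro against Stem were 134, and 209 with a replicate block, 83 with estimateDisp and 420 with DESeq2. With the block, calls in Tuft against Stem went from 2800 to 3966. Those in EEC against Tuft went from 2134 to 1637, and calls in EEC against SecPDG and Enterocyte also went down. The labels do not say whether libraries of the same replicate number share an animal or a day. The block left the member counts within 1.5 times of those without it, with 7 fold changes gaining and 2 losing a call. The called genes it gained included Ccnd3 in Tuft and Ccne2 and Cdkn1b in Enterocyte. Depth is least in EEC replicate 1, and EEC has 2 libraries.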
